A study of Rattus norvegicus with 6 samples.

Results

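The respiratory chain and the ATP synthase were examined through the nuclear genes whose symbols carry the prefixes of their subunits and assembly factors (Nduf, Sdha to Sdhd, Uqcr, Cox followed by a digit, and Atp5). The rule uses names and no measured value, and it found 104 of the 18696 genes with group averages. RNA was sequenced from dorsal root ganglia of SD rats, which hold the cell bodies of sensory neurons. In 3 SNI libraries the tibial and the common peroneal nerve had been tied and cut and the sural nerve left whole (spared nerve injury), and in 3 sham libraries the sciatic nerve had been laid bare and the skin sewn up. The sources used here do not give the time after surgery, the side or level of the ganglia, or the age or sex of the rats. Whether each library is a rat of its own is not in the labels, so a p-value here reflects only how far these samples spread, which may be technical.

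The protein complexes of the inner mitochondrial membrane, numbered I to IV, pass electrons from NADH and succinate to oxygen, and complexes I, III and IV pump protons while they do so. The ATP synthase, called complex V, lets the protons flow back and makes ATP. Sensory neurons, whose long axons need a constant supply of ATP for ion pumping, transport and growth, depend heavily on this machinery. Most subunits are encoded in the nucleus and a few in mitochondrial DNA, and those of mitochondrial DNA are not analysed here.

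The deposited unit is TPM, a length-corrected share of the transcripts in a library. Averages of each group were given for all 104 members, and values per library for 29 of them, as the deposited per-library table holds 1637 genes. The averages have no error, so a ratio of averages is a description, given as log2 of (SNI + 1 TPM) over (sham + 1 TPM). The average reads of all genes came to 18.6 M in SNI and 18.6 M in sham, and the depth of single libraries is unknown. The larger of a member's 2 average read counts ranged from 3 to 23507, and 102 of the 104 members had at least 10 reads. In bulk tissue, fewer cells of a type and less RNA per cell cannot be told apart.

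The averages of most respiratory chain and ATP synthase genes were slightly lower in SNI than in sham. Of the 104 members, 87 (83.7%) had a lower average and 17 a higher one, against 45.9% lower among all genes with averages. The median log2 ratio of the members was −0.16, and that of all genes was 0.02. Members are abundant transcripts, and abundant genes as a whole leaned lower. Of the genes that averaged at least 100 TPM over both groups 59.1% were lower, against 69 of the 76 members at that level, with medians of −0.04 for those genes and −0.18 for those members. Together the 104 members made up 3.04% of all TPM in SNI and 3.37% in sham. Few changes were large: among members with at least 10 reads, 4 (3.92%) had a log2 ratio of at least 0.32 in size on the lower side, against 9.32% of all such genes, and 0 on the higher side, against 15.1%. The 4 were Ndufa10l1, Ndufs3, Ndufv2 and Cox6b2, of which Ndufs3 and Ndufv2 averaged at least 100 TPM, a level at which 9.66% of all genes were past that ratio on the lower side.

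**Figure D1:**
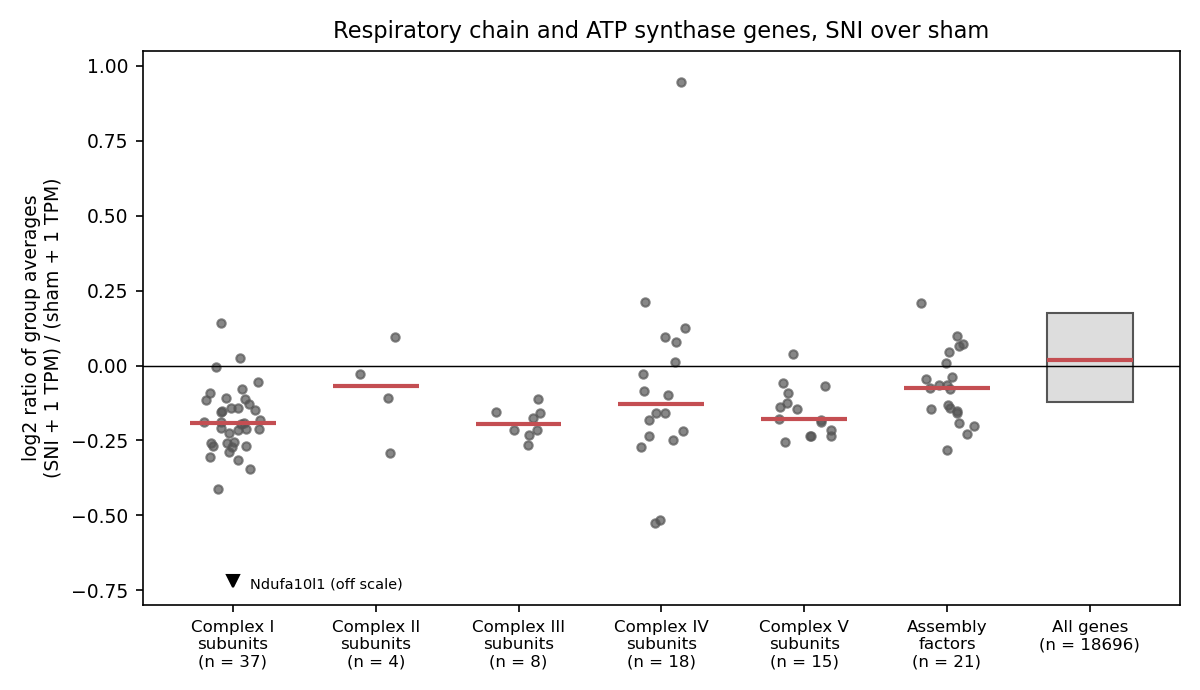
Log2 ratio of the group averages (vertical axis, SNI over sham, 1 TPM added to each) for the subunits of complexes I to V and for all assembly factors, 1 point a gene, with red lines at the medians. The grey box spans the middle 50% of all genes, Ndufa10l1 at −5.09 is marked below the scale, and the medians run from −0.19 in complexes I and III to −0.07 in complex II.

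The medians of the complexes ranged from close to 0 in complex II to their lowest in complexes I and III. The median log2 ratio was −0.19 for the 37 complex I subunits, −0.19 for the 8 of complex III, −0.18 for the 15 of complex V, −0.13 for the 18 of complex IV and −0.07 for the 4 of complex II. All 8 complex III subunits had a lower average, as did 35 of 37 in complex I and 14 of 15 in complex V. In complex IV 12 of 18 did, and in complex II 3 of 4. Ndufa4l2 was counted with complex I by its name, although its relative Ndufa4 was counted with complex IV. It was among the 2 complex I subunits with a higher average. Summed over a complex, complex I subunits held 8147 TPM in SNI and 9321 TPM in sham, a difference of −12.6%. Without Ndufa10l1 that difference was −12.2%. Complex III held 2256 TPM in SNI and 2569 TPM in sham (−12.2%). Complex II held 733 TPM in SNI and 772 TPM in sham (−4.96%). Complex IV held 9330 TPM in SNI and 10106 TPM in sham (−7.68%), and complex V 8228 TPM in SNI and 9191 TPM in sham (−10.5%). The genes of a complex are not replicates, so the differences between complexes have no test. With its assembly factors counted in, the median of complex IV was −0.08, and without the copy Cox7a2l2 it was −0.10.

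Of the 29 members tested with limma on log2(TPM + 1), 18 (62.1%) fell and 0 rose, by an adjusted p (Benjamini-Hochberg) below 0.05. Of all 1596 genes tested, 29.2% fell and 32% rose, and after quantile normalization of the libraries 608 fell and 402 rose, against 466 and 510 as deposited. What selected the genes of this table is not stated. By complex, 8 of 13 members of complex I fell, 3 of 4 of complex III, 5 of 6 of complex IV and 1 of 5 of complex V. The 1 tested member counted with complex II, the assembly factor Sdhaf1, also fell. Only members with values per library could be tested, so these counts do not rank the complexes. By group averages of all subunits, the median log2 ratio was −0.13 in complex IV and −0.18 in complex V. In 16 of the 29, all called, every SNI library lay below every sham library, as in 31.3% of all genes tested. Apart from Ndufa10l1, the called falls were of 10.4% to 21.4% of the sham mean. The count of 18 was 9 (31.0%) without SNI replicate 3, where 23.9% of all genes tested fell, so that the share of members was then near that of the table. It was 14 (48.3%) without sham replicate 2, where 29.9% of all genes fell.

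**Figure D2:**
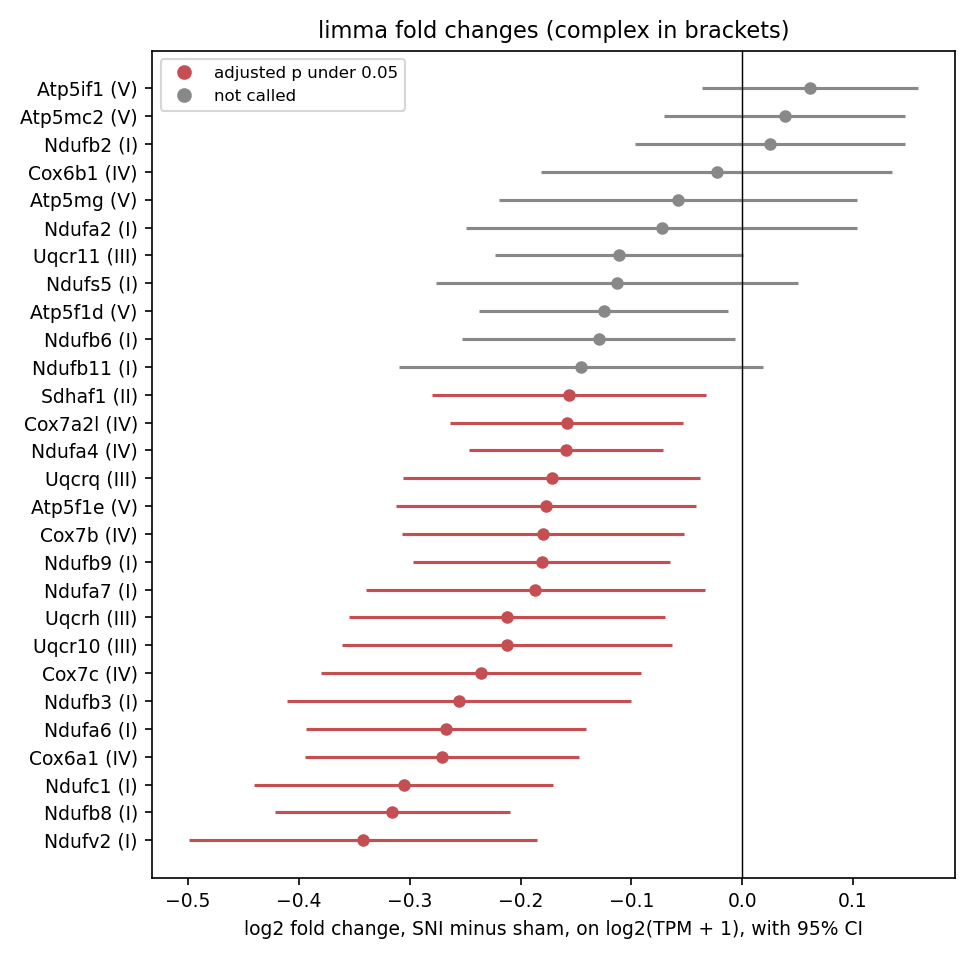
Log2 fold change (horizontal axis, SNI minus sham on log2(TPM + 1)) with its 95% confidence interval from limma for 28 members with values per library, complex in brackets. Red marks an adjusted p under 0.05: 17 of these 28 lie to the left of 0 in red, and Ndufb2, Atp5mc2 and Atp5if1 lie to the right of 0, uncalled.

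Complex I takes electrons from NADH. Its catalytic core, which holds the flavin and the iron-sulphur clusters, has 7 nuclear-encoded subunits, and all 7 had a lower average in SNI, with a median log2 ratio of −0.22 against −0.18 for the 28 other subunits outside the copies Ndufa10l1 and Ndufa4l2. Ndufv2, the core subunit beside the flavin site, had 285, 303 and 286 TPM in the SNI libraries, against 378, 403 and 331 TPM in the sham libraries. The groups did not overlap, and the lowest sham library was still above the highest SNI library. Ndufv2 fell with a log2 fold change of −0.34 (limma, SE 0.07, adjusted p = 0.0023). Ndufs3, a core subunit near the quinone site, had the largest difference of the core by averages, 123 TPM in SNI and 164 TPM in sham (log2 ratio −0.41), with no values per library. The averages of the core genes Ndufs1, Ndufs7, Ndufs8 and Ndufv1 differed by −17.3% in Ndufs7 to −9.98% in Ndufs8.

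The supernumerary subunits surround the core and are needed for its assembly and stability. Outside the copies, their log2 ratios of averages ran from −0.32 to 0.03, against −0.41 to −0.15 in the core. Ndufb8, a membrane arm subunit often used as a marker of assembled complex I, had 420, 399 and 389 TPM in SNI libraries and 482, 520 and 502 TPM in sham libraries. All SNI values lay below all sham values, and Ndufb8 fell with a log2 fold change of −0.32 (limma, SE 0.05, adjusted p = 0.00032). Ndufc1, another membrane arm subunit, had 89.7, 101 and 89.7 TPM in SNI and 119, 117 and 111 TPM in sham (log2 fold change −0.31, limma adjusted p = 0.0018). Ndufa6, of the LYR motif family that binds the acyl carrier protein, had 224, 233 and 216 TPM in SNI and 258, 290 and 263 TPM in sham (log2 fold change −0.27, limma adjusted p = 0.0027). In both the groups were apart. Ndufb3, Ndufb9 and Ndufa7 also fell, by 0.26, 0.18 and 0.19 on the log2 scale, with limma adjusted p of 0.01, 0.013 and 0.038. The libraries of Ndufa7 overlapped, and its call was lost under 7 of 13 other settings, while that of Ndufb9 was lost without SNI replicate 3 (limma adjusted p = 0.058).

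Other complex I subunits did not pass. Ndufb11 and Ndufb6 had log2 fold changes of −0.15 and −0.13 (limma adjusted p = 0.11 and 0.066), Ndufs5 and Ndufa2 of −0.11 and −0.07 (0.2 and 0.44). Ndufb2 had 247, 234 and 223 TPM in SNI and 223, 242 and 227 TPM in sham. Its groups overlapped, with a log2 fold change of 0.02 and a 95% interval from −0.10 to 0.15, which excludes a fall as large as that of Ndufb8. Ndufb4 and Ndufs5, with Ndufb8 the most abundant subunits counted with complex I, averaged 510 and 478 TPM in SNI and 550 and 517 TPM in sham. Ndufv3 averaged 271 TPM in SNI and 272 TPM in sham.

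Ndufa10l1 (Gene ID 316632) stood apart from every other member. It had 0.60, 0 and 0.41 TPM in the SNI libraries, against 42.4, 44.6 and 46.6 TPM in the sham libraries. It was close to 0 in all SNI libraries and steady in sham, with average read counts of 4.38 in SNI and 572 in sham, and a log2 fold change of −5.12 (limma, SE 0.15, adjusted p = 9.8e-09). The added 1 TPM sets the size of this fold, which was −7.08 (SE 0.60) on log2(TPM + 0.1). In the authors' deposited table of lower genes it was the 1 member and the 1 gene under the pathway name oxidative phosphorylation. The authors' deposited table of 699 higher genes held 0 members and 0 genes with that pathway name. RefSeq annotates Ndufa10l1 as protein coding and lists Ndufa10 among its other names. The gene that RefSeq itself names Ndufa10, which encodes a subunit of the membrane arm, averaged 202 TPM in SNI and 234 TPM in sham (log2 ratio −0.21). RefSeq lists 111 pseudogenes with the prefixes of the members, and how reads were split between such copies is not given in the sources used here, so the value of Ndufa10l1 in particular is uncertain.

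Complex II, succinate dehydrogenase, links the citric acid cycle to the chain and pumps no protons. Its 4 subunits did not have averages in one direction. Sdha, the flavoprotein that oxidises succinate, averaged 151 TPM in SNI and 185 TPM in sham (log2 ratio −0.29). Sdhb, the iron-sulphur subunit, averaged 288 TPM in SNI and 294 TPM in sham. The membrane anchors differed, as Sdhc averaged 172 TPM in SNI and 160 TPM in sham (log2 ratio 0.10), and Sdhd 123 TPM in SNI and 133 TPM in sham (−0.11). None of the 4 had values per library.

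Complex III passes electrons from ubiquinol to cytochrome c. Uqcrh, the hinge subunit that binds near cytochrome c1, had 496, 476 and 469 TPM in SNI libraries and 543, 614 and 517 TPM in sham libraries. Uqcr10 had 249, 262 and 246 TPM in SNI and 272, 324 and 283 TPM in sham. In both genes the groups were apart and sham replicate 2 was the highest library. They fell with log2 fold changes of −0.21 each (SE 0.06 and 0.07, limma adjusted p = 0.016 and 0.02). Uqcrq fell by 0.17 (limma adjusted p = 0.031), and Uqcr11 had a log2 fold change of −0.11 that did not pass (limma adjusted p = 0.079). Without SNI replicate 3 the calls of Uqcrh, Uqcr10 and Uqcrq were lost, that of Uqcr10 also without SNI replicate 1 and that of Uqcrq under 5 of 13 settings, at limma adjusted p of up to 0.062, 0.072 and 0.12 over all settings. By averages, Uqcrb and the large core proteins Uqcrc1 and Uqcrc2 had log2 ratios of −0.27, −0.23 and −0.16, and Uqcrfs1, the Rieske iron-sulphur protein that takes the first electron, had −0.16.

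Complex IV, cytochrome c oxidase, hands the electrons to oxygen. Cox6a1, a regulatory subunit and the most abundant member by mean average TPM, had 1759, 1646 and 1570 TPM in SNI and 1876, 2079 and 2049 TPM in sham. The groups were apart, and Cox6a1 fell with a log2 fold change of −0.27 (limma, SE 0.05, adjusted p = 0.0022). Cox7c, a small membrane subunit, had 442, 472 and 405 TPM in SNI and 501, 552 and 499 TPM in sham (log2 fold change −0.24, SE 0.06, limma adjusted p = 0.011). Cox7b had 488, 507 and 506 TPM in SNI and 541, 618 and 544 TPM in sham (log2 fold change −0.18, limma adjusted p = 0.021). Ndufa4, named after complex I but a subunit of complex IV, had 548, 542 and 531 TPM in SNI and 602, 619 and 590 TPM in sham (log2 fold change −0.16, limma adjusted p = 0.0061). In all 3 the SNI libraries lay below the sham libraries. Cox7a2l, known for joining complexes III and IV into supercomplexes, also fell by 0.16 (limma adjusted p = 0.015). Without SNI replicate 3 the calls of Cox7a2l and Cox7b were lost (limma adjusted p = 0.069 and 0.052), that of Cox7b also without SNI replicate 1 (0.066).

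Several abundant complex IV subunits had averages close to those of sham. Cox6b1, which faces the cytochrome c side, had 812, 789 and 776 TPM in SNI and 715, 881 and 828 TPM in sham. Its sham libraries spread around the SNI values, and it did not pass (log2 fold change −0.02, limma adjusted p = 0.8). Cox4i1 and Cox8a, at 1129 and 1232 TPM in SNI and 1208 and 1222 TPM in sham, had log2 ratios of −0.10 and 0.01. Cox5a and Cox7a2 were among those with a higher average, at 963 and 256 TPM in SNI and 901 and 242 TPM in sham, while Cox5b averaged 482 TPM in SNI and 562 TPM in sham (log2 ratio −0.22). The copy Cox7a2l2 averaged 235 TPM in SNI and 279 TPM in sham.

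Complex IV has subunit isoforms with tissue-specific use, and these stayed far below the ubiquitous forms in both groups. Cox4i2, the form known from lung and from hypoxia, averaged 6.94 TPM in SNI and 5.86 TPM in sham. Cox7a1, a form of heart and skeletal muscle, averaged 1.84 TPM in SNI and 1.61 TPM in sham, and Cox6a2, another muscle form, 1.72 TPM in SNI and 0.413 TPM in sham. Those of Cox6a2 rest on 7 average reads in SNI and 1.67 in sham, and its log2 ratio of 0.95 was the highest of all members. Cox8b rests on 1.33 average reads in SNI and 3 in sham. Cox6b2, a form of testis, averaged 4.40 TPM in SNI and 6.76 TPM in sham, on 18 average reads in SNI and 27 in sham. Ndufa4l2, a hypoxia-induced relative of Ndufa4, averaged 4.8 TPM in SNI and 4.26 TPM in sham.

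Complex V, the ATP synthase, has a catalytic F1 head and a membrane part with a rotating c-ring. All 5 F1 genes had a lower average, with a median log2 ratio of −0.18. Atp5f1b, the catalytic beta subunit, averaged 1308 TPM in SNI and 1484 TPM in sham (−0.18), and Atp5f1a, the alpha subunit, 561 TPM in SNI and 661 TPM in sham (−0.24). Atp5f1e, the epsilon subunit, had 631, 594 and 576 TPM in SNI and 631, 732 and 677 TPM in sham, so that the highest SNI library reached the lowest sham library. It fell with a log2 fold change of −0.18 (limma, SE 0.06, adjusted p = 0.029), a call lost under 5 of 13 other settings. Atp5f1d, the delta subunit, had 1078, 1030 and 1031 TPM in SNI and 1075, 1214 and 1137 TPM in sham and did not pass (−0.13, limma adjusted p = 0.053).

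Among the membrane and stalk genes, Atp5po, the subunit that confers oligomycin sensitivity, averaged 450 TPM in SNI and 537 TPM in sham (log2 ratio −0.26), and Atp5mf 892 TPM in SNI and 1036 TPM in sham (−0.22). The c-ring subunit is encoded by 3 genes that make the same mature protein. Of these, Atp5mc3 averaged 416 TPM in SNI and 490 TPM in sham, Atp5mc1 369 TPM in SNI and 408 TPM in sham, and Atp5mc2 312 TPM in SNI and 304 TPM in sham. Atp5mc2 had 305, 325 and 307 TPM in SNI libraries and 296, 320 and 298 TPM in sham libraries, with groups that overlapped, a log2 fold change of 0.04 and a 95% interval from −0.07 to 0.15. Atp5mg did not pass either (−0.06, limma adjusted p = 0.51). Atp5if1, the inhibitor that stops the synthase from running backwards and burning ATP, had 832, 832 and 822 TPM in SNI and 752, 812 and 819 TPM in sham. Its SNI libraries all lay above its sham libraries, by a narrow gap. The log2 fold change of Atp5if1, 0.06, did not pass (limma, SE 0.04, adjusted p = 0.25) and turned to −0.05 after quantile normalization. Atp5s, which RefSeq now names Dmac2l, was low at 11.8 TPM in SNI and 13.6 TPM in sham. Atp5f1, which RefSeq now names Atp5pb, is listed at 0 in all 6 libraries, has no group average and is not counted here.

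**Figure D3:**
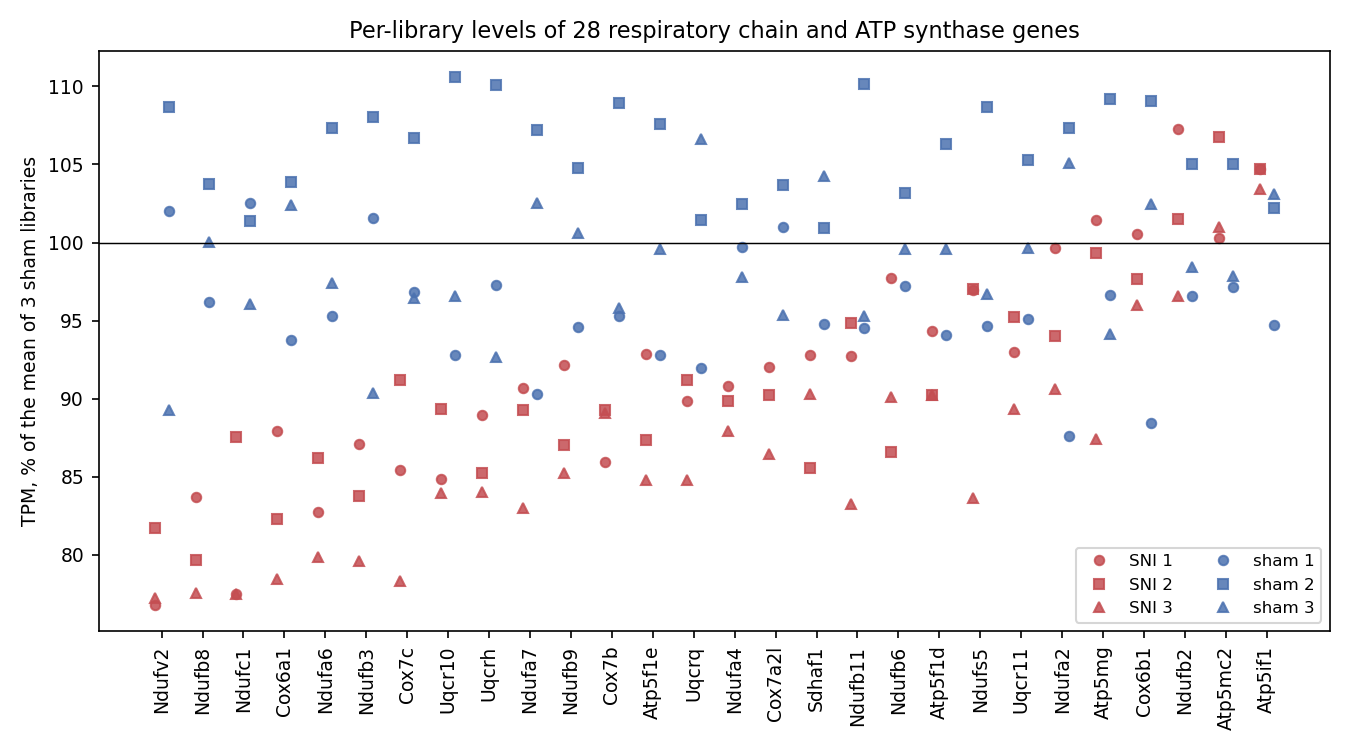
TPM of each library as a percentage of the mean of the 3 sham libraries (vertical axis) for 28 members, ordered by fold change from the largest fall on the left. SNI libraries are red and sham libraries blue, circles, squares and triangles mark replicates 1, 2 and 3, and the blue squares of sham replicate 2 are the highest sham value in most genes.

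Most members shared the order of the libraries within a group. Sham replicate 2 was the highest sham library in 24 of the 29 members, against 28.9% of all genes tested. SNI replicate 3 was the lowest SNI library in 21 of the 29, against 27.7% of all genes tested. Summed over 12 complex I subunits without Ndufa10l1, the SNI libraries held 3014, 2964 and 2778 TPM and the sham libraries 3214, 3562 and 3266 TPM. The 6 complex IV subunits held 4522, 4419 and 4232 TPM in SNI and 4753, 5281 and 5000 TPM in sham, and the 4 complex III subunits 1505, 1512 and 1438 TPM in SNI and 1592, 1797 and 1657 TPM in sham. For these 3 complexes the sums of SNI libraries lay below those of all sham libraries. For the 4 complex V subunits they overlapped, at 2762, 2681 and 2559 TPM in SNI and 2714, 3071 and 2806 TPM in sham. These 4 leave out abundant subunits with no values per library, such as Atp5f1b, Atp5mf and Atp5f1a. By averages, the sum of all 15 complex V subunits differed by −10.5%, and that of all 18 of complex IV by −7.68%.

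**Figure D4:**
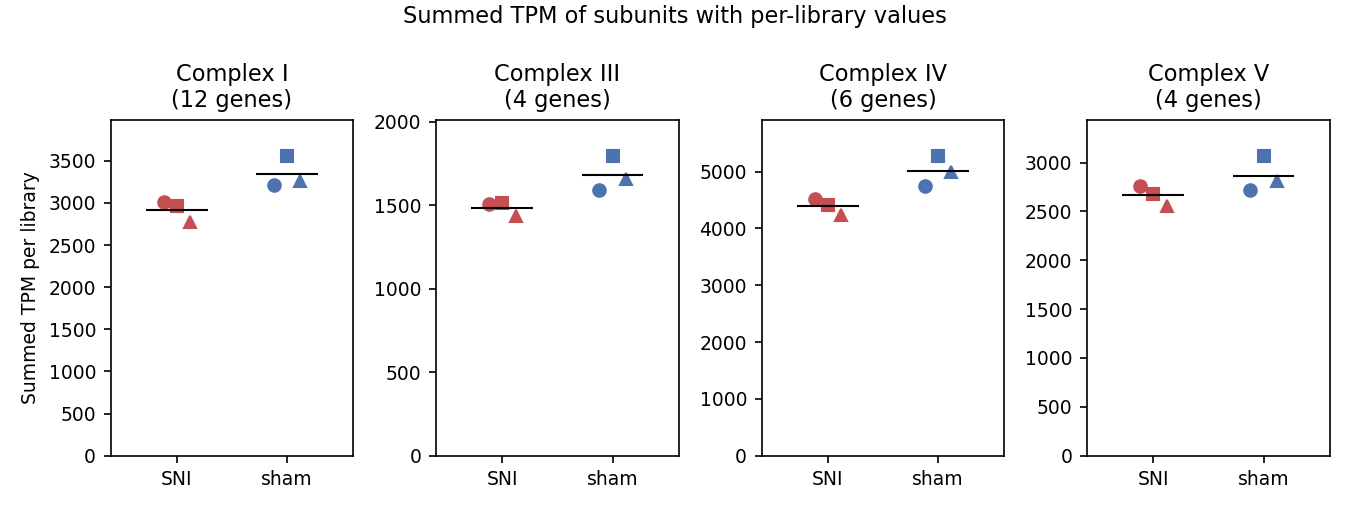
Summed TPM per library (vertical axis, from 0) of the subunits with values per library in complexes I, III, IV and V, with SNI in red on the left and sham in blue on the right. Circles, squares and triangles mark replicates 1, 2 and 3 and black lines the group means. The groups are apart in complexes I, III and IV. They overlap in complex V, of which 4 of 15 subunits had values per library.

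Assembly factors, which insert cofactors and join subunits but are not part of the finished complexes, had a pooled median ratio closer to 0. Of 21, 15 had a lower and 6 a higher average, with a median log2 ratio of −0.08 against −0.18 for the 82 subunits. By complex, the medians were −0.17 for the 8 factors of complex I, −0.05 for the 4 of complex II and −0.07 for the 9 of complex IV. Those of the subunits of these complexes were −0.19, −0.07 and −0.13, so the factors of complexes I and II lay close to their subunits. They are also less abundant, as 1 of 21 averaged at least 100 TPM, against 74 of 82 subunits. Sdhaf1, an assembly factor of the complex II iron-sulphur subunit, had 84.4, 77.8 and 82.1 TPM in SNI and 86.2, 91.7 and 94.7 TPM in sham. Its groups were apart by a narrow gap, and it fell with a log2 fold change of −0.16 (limma adjusted p = 0.033), a call lost under 4 of 13 other settings. Among complex I factors, Ndufaf6 had the lowest log2 ratio (−0.28, at 13.8 TPM in SNI and 17 TPM in sham) and Ndufaf4 the highest (0.21, at 15.0 TPM in SNI and 12.9 TPM in sham), while Ndufaf8 had 0.06. Cox17, a copper chaperone of complex IV, averaged 162 TPM in SNI and 171 TPM in sham. Cox10 and Cox15, enzymes that make the haem of complex IV, had log2 ratios of −0.08 and 0.01. Sdhaf4 averaged 50.1 TPM in SNI and 46.8 TPM in sham.

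Many of these genes share promoter motifs for the nuclear respiratory factors, NRF1 and the ETS family factor GABP, long known as common regulators of the chain. As most members had lower averages together, their promoters were searched, from 250 bases before to 50 after the gene start as given by RefSeq (build GRCr8), on both strands and on letters alone. The NRF1 motif was GCGCA, then any base, then GCGC, and the ETS motif was CCGGAAG, and neither holds the other. Of the 91 members with a promoter entry, 20.9% held the NRF1 letters and 30.8% the ETS letters, against 4.71% and 9.22% of all 27457 promoters of that length and 12.8% and 18.3% of those of genes averaging at least 100 TPM. At least 1 of the motifs was in 37 of 77 members with a lower average and in 7 of 14 with a higher average. The NRF1 letters were in 5 of 14 promoters of complex V subunits and in 0 of 14 of complex IV subunits. A match is a description of these letters, and its absence says nothing of the factor. Shown are 1 promoter with a motif for each complex, from genes with lower values in SNI, and that of Atp5mc2, whose values were not lower, with the motif in capitals.
Ndufa6 (GRCr8, chr7:115750268-115750567, minus strand): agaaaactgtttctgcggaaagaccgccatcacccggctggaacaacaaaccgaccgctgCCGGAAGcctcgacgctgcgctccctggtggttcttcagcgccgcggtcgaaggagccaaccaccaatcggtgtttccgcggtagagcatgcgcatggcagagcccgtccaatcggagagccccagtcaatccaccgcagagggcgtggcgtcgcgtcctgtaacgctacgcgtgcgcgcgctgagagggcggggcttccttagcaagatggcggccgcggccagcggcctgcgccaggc
Sdha (GRCr8, chr1:30764303-30764602, plus strand): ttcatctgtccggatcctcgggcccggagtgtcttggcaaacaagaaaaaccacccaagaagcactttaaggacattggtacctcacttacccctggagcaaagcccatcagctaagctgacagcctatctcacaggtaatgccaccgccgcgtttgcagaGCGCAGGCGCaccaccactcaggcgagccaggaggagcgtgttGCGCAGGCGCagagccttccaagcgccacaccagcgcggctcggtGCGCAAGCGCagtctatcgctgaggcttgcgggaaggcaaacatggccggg
Uqcrh (GRCr8, chr5:134790833-134791132, minus strand): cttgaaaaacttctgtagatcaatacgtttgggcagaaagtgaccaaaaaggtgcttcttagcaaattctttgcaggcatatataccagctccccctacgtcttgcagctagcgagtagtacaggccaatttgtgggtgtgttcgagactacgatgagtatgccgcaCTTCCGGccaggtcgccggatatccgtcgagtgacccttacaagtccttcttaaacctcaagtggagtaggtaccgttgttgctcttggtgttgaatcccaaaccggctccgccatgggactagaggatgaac
Cox5b (GRCr8, chr9:46417587-46417886, plus strand): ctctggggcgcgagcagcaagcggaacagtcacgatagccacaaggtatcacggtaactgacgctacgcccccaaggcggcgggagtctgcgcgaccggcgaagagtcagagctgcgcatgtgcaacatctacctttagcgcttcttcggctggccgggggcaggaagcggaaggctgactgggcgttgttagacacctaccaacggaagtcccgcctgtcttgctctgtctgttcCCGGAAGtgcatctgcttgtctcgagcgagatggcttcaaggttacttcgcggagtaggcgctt
Atp5po (GRCr8, chr11:44657434-44657733, minus strand): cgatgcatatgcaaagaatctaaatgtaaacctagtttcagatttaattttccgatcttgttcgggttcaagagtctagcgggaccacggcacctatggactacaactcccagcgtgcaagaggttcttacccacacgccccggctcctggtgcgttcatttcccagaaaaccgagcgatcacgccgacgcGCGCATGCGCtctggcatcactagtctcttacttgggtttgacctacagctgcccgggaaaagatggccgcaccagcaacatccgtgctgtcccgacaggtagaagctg
Atp5mc2 (GRCr8, chr7:135678169-135678468, minus strand): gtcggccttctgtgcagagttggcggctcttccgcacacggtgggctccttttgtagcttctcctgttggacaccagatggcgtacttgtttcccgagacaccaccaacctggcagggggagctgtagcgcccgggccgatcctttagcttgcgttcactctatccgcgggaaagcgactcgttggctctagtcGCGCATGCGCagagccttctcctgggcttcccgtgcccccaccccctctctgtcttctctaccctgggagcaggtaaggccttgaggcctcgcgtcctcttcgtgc
Ndufa6, Uqcrh and Cox5b hold the ETS letters once, Sdha holds the NRF1 letters 3 times, and Atp5po and Atp5mc2 share the same 10 letters GCGCATGCGC, although Atp5po had a log2 ratio of −0.26 and Atp5mc2 of 0.04.

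Transcripts of the regulators themselves did not have averages in one direction. Of 18 genes of mitochondrial biogenesis, 12 had a lower and 6 a higher average, with a median log2 ratio of −0.02. Esrrg, an orphan nuclear receptor that drives oxidative metabolism genes, had 7.82, 8.06 and 8.60 TPM in SNI and 13.75, 12.3 and 14.0 TPM in sham. The groups were far apart, and Esrrg, the 1 gene of the list tested, fell with a log2 fold change of −0.65 (limma, SE 0.08, adjusted p = 6.4e-05). The related Esrra averaged 32.2 TPM in SNI and 43.5 TPM in sham, and these 2 receptors were the members of the list with a log2 ratio of at least 0.32 in size on the lower side. Nrf1 averaged 12.2 TPM in SNI and 10.4 TPM in sham, Gabpa 13.9 TPM in SNI and 12.7 TPM in sham, the mitochondrial transcription factor Tfam 21.4 TPM in SNI and 19.8 TPM in sham, and the coactivator Ppargc1a 9.09 TPM in SNI and 7.72 TPM in sham. Esrra and these last 4 were named after their values were seen.

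Neighbouring pathways were read the same way. Of 19 genes found of the list for the citric acid cycle and pyruvate dehydrogenase, 14 had a lower and 5 a higher average (median log2 ratio −0.07). The list also holds the cytosolic forms Mdh1 and Aco1. The 1 gene tested, Dlat, did not pass (limma adjusted p = 0.95). The most abundant of the list were the malate dehydrogenases Mdh2, at 611 TPM in SNI and 701 TPM in sham, and Mdh1, at 411 TPM in SNI and 524 TPM in sham. Of 17 genes of glycolysis and lactate, 8 were lower and 9 higher (median 0.01), and the 1 tested, the neuronal enolase Eno2, fell by 0.11 on the log2 scale (limma, SE 0.04, adjusted p = 0.039). Of the 17 genes of electron carriers and of chain parts with other names, 13 were lower and 4 higher (median −0.13), and the 1 tested, Usmg5, a small ATP synthase subunit, did not pass (limma adjusted p = 0.53). Of the 27 assembly factors with other names 19 were lower and 8 higher (median −0.08), and the 1 tested, Pet100, did not pass (limma adjusted p = 0.11). Its most abundant genes were Higd2a, at 226 TPM in SNI and 220.0 TPM in sham, and Coa3, at 175 TPM in SNI and 187 TPM in sham. Of the 16 carriers and channels of the mitochondrial membranes 13 were lower and 3 higher (median −0.09), and the 1 tested, Slc25a12, an aspartate-glutamate carrier, did not pass (limma adjusted p = 0.28). Its most abundant genes were the ATP/ADP carrier Slc25a4, at 921 TPM in SNI and 1011 TPM in sham, and the phosphate carrier Slc25a3, at 579 TPM in SNI and 635 TPM in sham.

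Some genes of these lists had larger ratios than most chain genes, and the following were picked after their values were seen and have no test. Ckmt1, the mitochondrial creatine kinase that passes ATP on as phosphocreatine, averaged 325 TPM in SNI and 480 TPM in sham, and its muscle relative Ckmt2 6.33 TPM in SNI and 9.93 TPM in sham. Lactate dehydrogenase B (Ldhb) averaged 487 TPM in SNI and 677 TPM in sham, and phosphofructokinase Pfkm 187 TPM in SNI and 243 TPM in sham. In the other direction lay the glycolytic genes Pgk1, at 478 TPM in SNI and 371 TPM in sham, and Hk2, at 4.03 TPM in SNI and 2.23 TPM in sham. Cytochrome c (Cycs), the mobile carrier between complexes III and IV, averaged 337 TPM in SNI and 276 TPM in sham, whereas its partner in complex III, cytochrome c1 (Cyc1), averaged 264 TPM in SNI and 298 TPM in sham.

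The averages of cell type markers also differed between the groups. All 14 sensory neuron markers were detected, with 9 lower and 5 higher averages that summed to 31291 TPM in SNI and 35671 TPM in sham. The lower sum is that of the neurofilaments Nefl, Nefm and Nefh, at 4497, 3058 and 2877 TPM in SNI and 7588, 4804 and 4485 TPM in sham. Lower too were Rbfox3, Snap25, Scn10a and Isl1, with log2 ratios of −0.57, −0.43, −0.37 and −0.33. Among the 5 higher were Tubb3, Stmn2 and Prph, at 6108, 3275 and 3393 TPM in SNI and 4726, 2422 and 2762 TPM in sham. Of the 14 neuron markers, 7 had a log2 ratio of at least 0.32 in size on the lower side and 2 on the higher side. Among all genes with at least 10 reads these shares were 9.32% and 15.1%. Of 10 markers of myelinating Schwann cells, 8 had a lower average and 2 a higher one, with a sum of 6300 TPM in SNI and 11291 TPM in sham. All 13 macrophage markers had a higher average, with a sum of 957 TPM in SNI and 435 TPM in sham, as did all 8 erythrocyte markers found, at 812 TPM in SNI and 245 TPM in sham. The 14 skeletal muscle markers, of which 9 were lower and 5 higher, summed to 496 TPM in SNI and 730 TPM in sham, of which Pvalb, a gene that proprioceptive sensory neurons also express, made up 458 TPM in SNI and 697 TPM in sham. Markers of satellite glia summed to 8075 TPM in SNI and 8827 TPM in sham, with 7 of 8 higher, and the lower sum is that of Apoe, at 7526 TPM in SNI and 8348 TPM in sham. Those of endothelial cells summed to 138 TPM in SNI and 139 TPM in sham, with 5 of 8 higher. The 6 adipocyte markers found summed to 20.8 TPM in SNI and 8.65 TPM in sham, of which Cidea made up 14.3 TPM in SNI and 6.19 TPM in sham and Cidec 4.29 TPM in SNI and 0.45 TPM in sham, while the defining markers Adipoq and Plin1 were at 0.0733 and 0.127 TPM in SNI and 0.0767 and 0.123 TPM in sham. None of the markers found was at 0 in a group average. The part of these cell types in the lower values of the respiratory chain genes was not tested.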

How the data were processed

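Total RNA of frozen ganglia was sequenced on Illumina libraries, per the labels' protocols, which name more than 1 extraction and library kit. The sources used here do not give the aligner, counter, genome build or strand setting. The deposited values are, per the file headers, TPM of single libraries for 1637 genes and, for 18696 genes, average TPM and average read counts by group. These average counts are estimated counts as deposited by the authors, with no normalization stated. TPM keeps no depth, and the per-library columns summed to 25.8% to 27.1% of a full library, as they hold part of the genes. Columns named control were taken as sham. Means over libraries matched the deposited averages within 0.001 TPM for all 29 members tested.

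The 1596 genes whose mean reached 1 TPM were compared as log2(TPM + 1) in R 4.3.3 by limma 3.58.1, using a trend of variance with level and no covariate. P-values were adjusted (Benjamini-Hochberg) across these genes, at 0.05. Fold changes on this scale understate the change of low genes. The same fit was also run on simulated data, with an outcome that is not given here. Group averages carry no error and no test. Ndufa4 was counted with complex IV. Other calculations used Python 3.11.15 with pandas 2.3.3, numpy 2.4.6 and scipy 1.17.1, and figures matplotlib 3.10.9. RefSeq tables of GRCr8 gave names and promoters, and 102 members matched by gene ID.

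Named genes were all members with values per library, and in each complex the 3 most abundant, the 2 highest and the 2 lowest ratios among members with at least 50 reads, with the isoforms. Of each other list, called genes or else the 2 most abundant were named, and others where stated. The members, lists and rules were chosen with earlier results of these data known. The labels give no pairing of same-numbered libraries, whose deviations correlated weakly, and no pairing was used.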

Additional observations from a re-analysis of the deposited data

How the results depend on the processing

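Calls among the 29 tested members depended on single libraries. Leaving out 1 replicate each gave 9 to 21 of 29 members that fell, and 0 rose, while over all 1596 genes 381 to 477 fell and 442 to 522 rose. The lowest count of members came without SNI replicate 3, at 31.0% of members and 23.9% of all genes, and the highest without sham replicate 1, at 72.4% of members and 27.3% of all genes. Of the 18 calls, 9 were kept under all 13 alternatives and 9 were lost under at least 1. After quantile normalization 21 members fell, and over all genes 608 fell and 402 rose, against 466 and 510 as deposited. With a replicate block 19 members fell. The deviations of same-numbered libraries correlated at −0.09, −0.06 and 0.19. Such values cannot tell whether these libraries share a batch, and the labels give only the shared number. The count of members past the fold was 4 lower and 0 higher. At a fold of 1.5 it was 1 lower, and at a fold of 1.1 it was 61 lower and 3 higher. With no read minimum it was 5 lower and 1 higher, the higher being Cox6a2. Over all genes the counts were 401 lower and 1078 higher at a fold of 1.5, and 3967 lower and 5019 higher at a fold of 1.1. With no read minimum they were 1542 lower and 2539 higher. Genes with no call changed sign in some settings, and the cause was not tested. With 1 replicate left out, the log2 fold change of Atp5mg ranged from −0.0996 to 0.00861, that of Cox6b1 from −0.108 to 0.0427 and that of Ndufb2 from −0.0135 to 0.0620. After quantile normalization it was −0.0131 for Ndufb2, −0.0395 for Atp5mc2 and −0.0464 for Atp5if1. Centred on library medians it was −0.0205 for Ndufb2 and −0.00721 for Atp5mc2. The medians of complexes I to V kept their sign under the 8 alternatives tried. That of complex IV, −0.13, was −0.0797 with assembly factors, −0.0973 without copies or with Ndufa4 in complex I, and −0.159 at a minimum of 100 reads, and the other medians stayed within 1.5 times their value. These averages allow no leaving out of libraries.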
